A study of Mus musculus with 12 samples.

Results

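Transcript levels of 3 FOXO transcription factors and 7 genes known to rise with FOXO activity or with quiescence were described in blood cell progenitors of the mouse. The genes were chosen by name, but with earlier results of these data known, so counts among them are no independent test. The factors are Foxo1, Foxo3 and Foxo4. The targets are Txnip, Sesn1, Sesn3, Ccng2, Pik3ip1, Rbl2 and Tob1. All 10 are called members below. They are 10 of the 38924 gene IDs in the expression table, and all 10 passed the filter on low values (at least 1 TPM in at least 4 libraries). RNA-seq covered 12 bulk libraries of bone marrow cells from female C57Bl/6J mice, an inbred laboratory strain, with 4 libraries of each of 3 cell types. Lymphoid-primed multipotent progenitors (LMPP) were sorted as lineage-negative cells with Sca1, cKit and CD34, high Flk2 and no CD150. Common lymphoid progenitors (CLP) were sorted as lineage-negative cells with IL7Ra and Flk2 and low Sca1 and cKit. Granulocyte-monocyte progenitors (GMP) were sorted as lineage-negative cells with cKit, CD34 and the Fc gamma receptor, without Sca1 or CD150. Marrow had first been depleted of cells with mature lineage markers. Each type has 2 libraries from batch 2 and 2 from batch 1, as titled; what a batch stands for and how old the mice were is not stated for the bulk libraries. No label ties the libraries to separate animals. The p-values below therefore measure the spread between these libraries alone, and that spread may be technical.

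FOXO proteins are forkhead transcription factors held in check by growth factor signalling: phosphoinositide 3-kinase (PI3K) activates the kinase AKT, which phosphorylates FOXO proteins and keeps them out of the nucleus. When that signal falls, FOXO proteins enter the nucleus and activate genes of cell cycle arrest, stress resistance and restraint of growth. In the mouse, haematopoietic stem cells that lack several FOXO factors lose quiescence, and Foxo1 is required in early B cell development. FOXO activity is set largely by phosphorylation and location of the protein, which transcript levels do not measure.

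The type labels were checked against marker genes. The 4 LMPP markers (Flt3, Cd34, Ly6a and Kit) summed to 593.6 to 732.7 in LMPP, 80.78 to 360.7 in CLP and 163.8 to 227.6 TPM in GMP. The CLP markers (Il7r, Flt3, Dntt, Ly6d and Rag1) summed to 605.6 to 848.6 in LMPP, 1096 to 2247 in CLP and 3.29 to 6.72 TPM in GMP, and the GMP markers (Mpo, Elane, Fcgr3, Ms4a3, Kit and Cd34) to 1284 to 1729 in LMPP, 208 to 1846 in CLP and 18200 to 20620 TPM in GMP. Some libraries stood apart. The GMP markers summed to 1846 TPM in CLP batch 2 replicate 1 and to 208 to 398.2 TPM in the other CLP libraries. Flt3, which encodes the gate protein Flk2, was at 8.91 and 16.98 TPM in the CLP libraries of batch 2, against 138.28 and 146.13 TPM in those of batch 1. Il7r, which encodes the gate protein IL7Ra, showed no such drop: its TPM was 76.64 and 129.77 (batch 2) beside 86.49 and 82.3 (batch 1). Among the remaining CLP markers, Dntt and Ly6d were lower in both CLP libraries of batch 2, while Rag1 overlapped between the batches. The 9 B lineage markers, chosen to see committed B cell precursors, summed to 4826 and 6059 TPM in CLP of batch 2 and to 983.3 and 91.87 TPM in CLP of batch 1. The 6 red cell markers were highest in replicate 1 of batch 2, at a sum of 28300 TPM for LMPP and 13480 TPM for CLP; elsewhere their sum was 39.71 to 2460 TPM. The sum of 8 mature neutrophil markers was 25920 and 11950 TPM in this pair and 12.27 to 1950 TPM elsewhere. The pair is called haemoglobin-rich here. Genes at 1 TPM or more numbered 11956 to 12987 in LMPP, 11163 to 12144 in CLP and 11064 to 11342 in GMP libraries. In bulk samples, fewer cells of a type and less RNA per cell cannot be told apart.

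Promoter windows are shown for the 3 targets that hold a forkhead motif, Txnip, Sesn1 and Ccng2. These are among the 7 of 10 members called higher in LMPP than in GMP below. A link between motif and level was not tested. RefSeq promoter windows of GRCm38.p6, from 250 bases before to 50 bases after each transcript start, were found for 9 of the 10 genes, in 10 windows. They were searched on both strands for GTAAACA and CAAAACA, which are forkhead motifs. CACGTG, an E-box core, and TTTGAA, the CHR element of cell cycle genes, were searched as well. Only these exact letters were counted, so variant forms of an element were missed. None of these motifs overlaps another in the windows shown. GTAAACA was in 2 of the 10 windows and in 3.65% of all 32851 windows, CAAAACA in 1 and 6.28%, TTTGAA in 1 (Rbl2) and 17.9%, and CACGTG in 0 and 7.15%. A match is a description of letters and is not a binding site, and no match says only that the letters are not in these windows. In the sequences below, written 5′ to 3′ on the strand of the gene, capitals mark the forkhead motif or, for Sesn1, its reverse complement.
Txnip, chr3:96557707-96557956, plus strand: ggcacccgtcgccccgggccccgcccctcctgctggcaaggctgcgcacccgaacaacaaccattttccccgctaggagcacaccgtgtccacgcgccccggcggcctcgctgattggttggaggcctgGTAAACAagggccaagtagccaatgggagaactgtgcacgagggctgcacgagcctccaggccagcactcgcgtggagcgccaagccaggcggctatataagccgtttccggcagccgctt
Ccng2, chr5:93267323-93267572, plus strand: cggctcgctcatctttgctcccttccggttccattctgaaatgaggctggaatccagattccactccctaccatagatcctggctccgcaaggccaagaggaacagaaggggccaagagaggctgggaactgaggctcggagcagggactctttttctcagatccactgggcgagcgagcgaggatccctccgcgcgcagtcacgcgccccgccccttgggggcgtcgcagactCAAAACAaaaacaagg
Sesn1, chr10:41810585-41810614, plus strand: gaaccttctacTGTTTACcagccttttggg

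In Txnip, GTAAACA lies 121 to 115 bases before the start. In Ccng2, CAAAACA lies 16 to 10 bases before it. In Sesn1 the motif is on the opposite strand, 23 to 29 bases after the start. The window of Rbl2 holds TTTGAA on the opposite strand, 201 to 196 bases before the start. All of these starts are those of RefSeq transcripts. For Ccng2 and Sesn1 the windows lie inside the gene spans given below, which begin at 93267257 and 41809935.

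Of the 10 genes, 9 had their highest mean level in LMPP, and 9 had their lowest in GMP. The exceptions were Foxo1, highest in CLP, and Pik3ip1, lowest in CLP. Mean TPM was ordered LMPP over CLP over GMP for 8 of the 10 members and for 30.4% of the 12718 genes tested, while 45.8% of genes were highest in LMPP and 50.8% lowest in GMP. Some steps of this order were near-ties. Ccng2 averaged 17.4 in LMPP and 17.1 TPM in CLP, and Sesn3 8.96 and 8.55 TPM. Rbl2 averaged 19.6 in CLP and 19 TPM in GMP. The 7 targets together summed to 335.9 to 381.5 in LMPP, 175.1 to 198.4 in CLP and 103.8 to 127.8 TPM in GMP, so no library of 1 type entered the range of another. Txnip weighed most in these sums, with means of 206, 83 and 50.6 TPM. Taken alone, Sesn3, Ccng2 and Tob1 overlapped between LMPP and CLP, Pik3ip1 between LMPP and GMP, and Pik3ip1, Rbl2 and Tob1 between CLP and GMP. Txnip was the most abundant member, with a mean level above that of 93.8% of tested genes, and Foxo4 the least, above 27%.

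**Figure D1:**
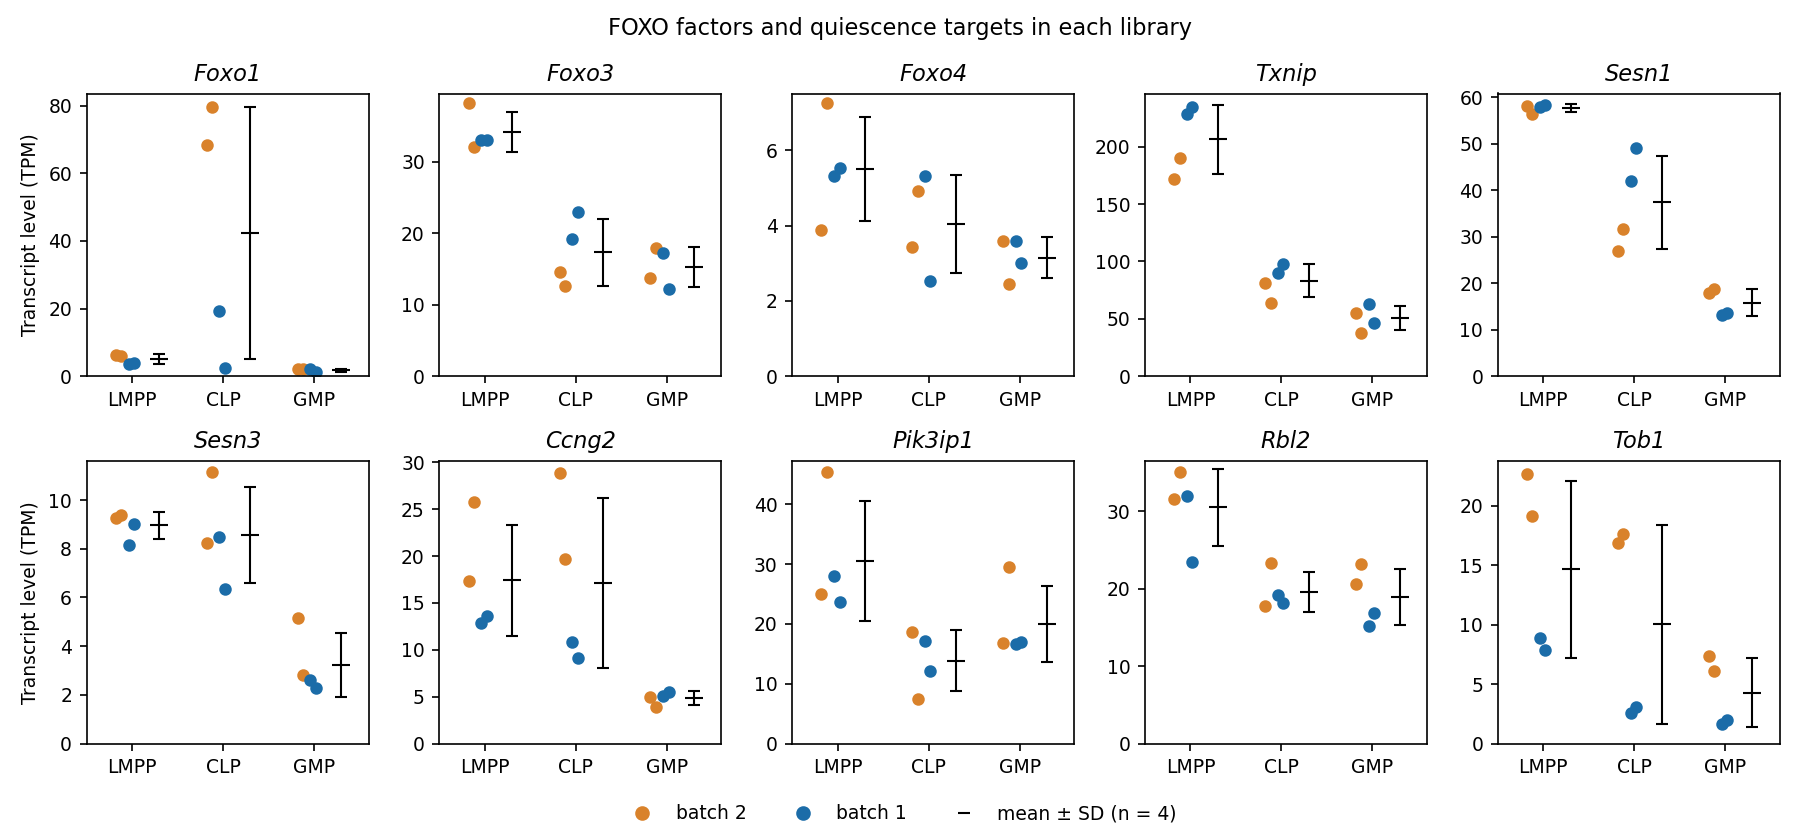
TPM of each of the 10 genes in the 12 libraries, by cell type (LMPP, CLP and GMP); points are libraries, coloured by batch, and bars are the mean and SD of 4 libraries. Foxo1 in CLP spans 2.56 to 79.48 TPM, while Sesn1 in LMPP spans 56.39 to 58.26 TPM.

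Differences between types were tested with limma on log2(TPM + 1), with an additive batch term, in a single fit of all 12 libraries. Benjamini-Hochberg adjustment ran over all 12718 tested genes, and an adjusted p under 0.05 is termed a call. Log2 differences are the first type minus the second on this scale, which understates changes of low genes. The 3 comparisons share libraries, so their values stand side by side and are not independent.

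Between LMPP and CLP, 5 of the 10 members were called higher in LMPP (Foxo3, Txnip, Pik3ip1, Rbl2 and Tob1), where 7.23% of all tested genes were, and 1 was called lower (Foxo1), where 2.8% were. The libraries of the types did not overlap for 5 members, all higher in LMPP (Foxo3, Txnip, Sesn1, Pik3ip1 and Rbl2), against 8.81% of all genes, and 0 lower, against 2.27%. Between LMPP and GMP, 7 members were called higher in LMPP (Foxo3, Txnip, Sesn1, Sesn3, Ccng2, Rbl2 and Tob1), against 21.3% of genes, and 0 lower, against 7.62%. All 4 LMPP libraries lay above all 4 GMP libraries for 9 members, every one but Pik3ip1, against 22.7% of genes; 0 lay below, against 7.76%. Between CLP and GMP, 6 members were called higher in CLP (Foxo1, Txnip, Sesn1, Sesn3, Ccng2 and Tob1), against 13.9% of genes, and 0 lower, against 9.96%; libraries did not overlap for 5 members, all higher in CLP (Foxo1, Txnip, Sesn1, Sesn3 and Ccng2), against 11.8% of genes, and for 0 lower, against 9.12%. At an unadjusted p under 0.05, 0 members were lower in LMPP than in GMP, against 11.1% of genes, and 0 lower in CLP than in GMP, against 15% of genes.

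The median log2 difference over the 7 targets was 0.65 for LMPP against CLP, 1.61 for LMPP against GMP and 0.83 for CLP against GMP, beside medians over all tested genes of 0.17, 0.24 and 0.09. TPM is relative to the whole library, and median-ratio scaling moved the median of all genes by -0.15, -0.24 and -0.09 in the same order. Among all called genes, the share called higher in the first type was 72.1% for LMPP against CLP, 73.6% for LMPP against GMP and 58.3% for CLP against GMP, and 47.3%, 46% and 45.7% after that scaling. With it, 2 members instead of 5 were called higher in LMPP than in CLP, while the share of all tested genes called higher was 4.28% instead of 7.23%.

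**Figure D2:**
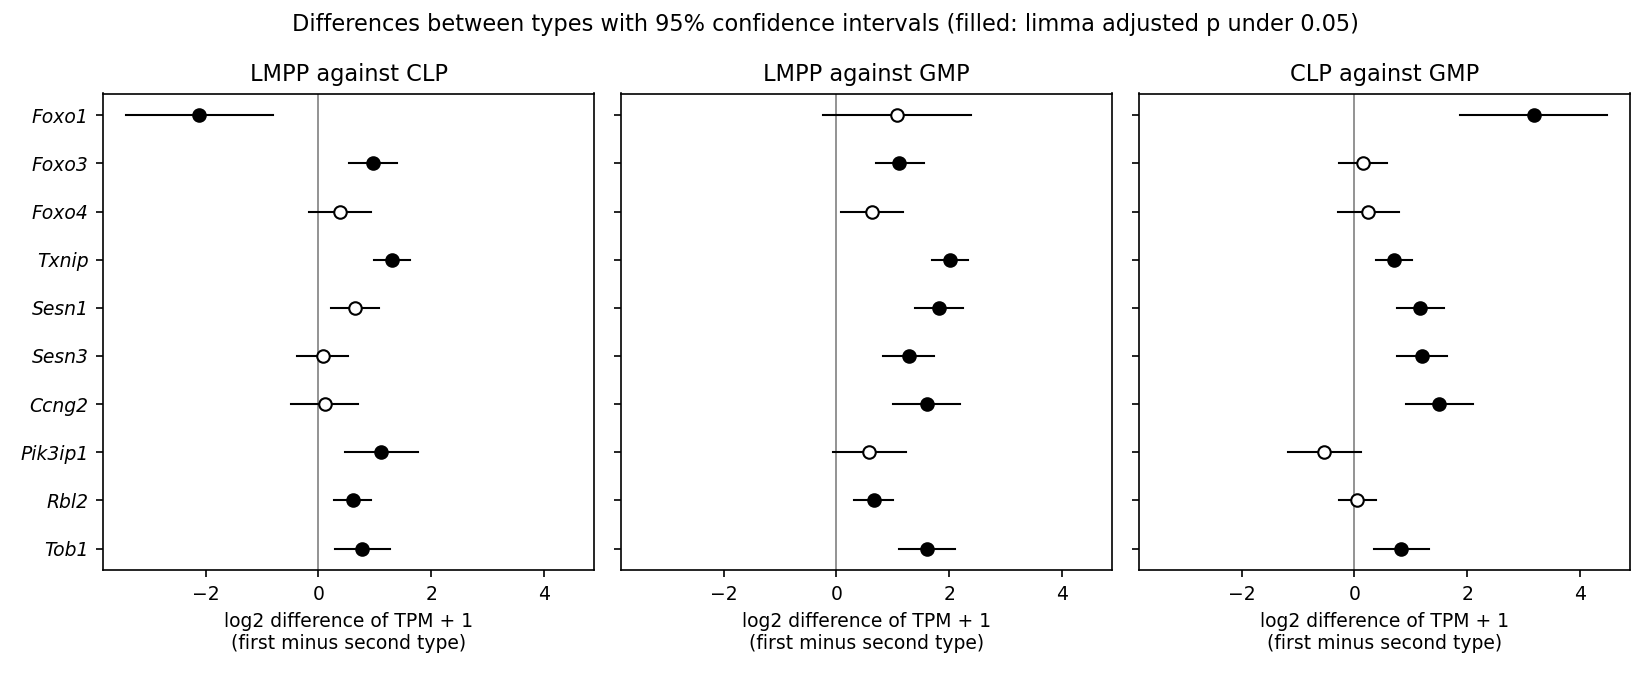
Log2 difference of each gene with its 95% confidence interval in the 3 comparisons, with filled points for a limma adjusted p under 0.05. Txnip lies at 1.31, 2.02 and 0.71 from the left panel to the right, and Foxo1 at -2.11, 1.08 and 3.19.

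Foxo3 (chromosome 10, 42181841 to 42276755, minus strand, mm10), the FOXO factor best known for maintenance of blood stem cells, was higher in LMPP than in either other type. It stood at 38.21 and 32.02 TPM in LMPP of batch 2 and 32.99 and 33.07 TPM in LMPP of batch 1. In CLP it stood at 14.56 and 12.59 TPM in batch 2 and 19.21 and 22.94 TPM in batch 1, and in GMP at 13.66 and 17.96 TPM and at 17.21 and 12.16 TPM. Every LMPP library was above every CLP and GMP library, and the CLP and GMP libraries overlapped. The means were 34.1 ± 2.8 in LMPP, 17.3 ± 4.66 in CLP and 15.2 ± 2.78 TPM in GMP (SD, n = 4 each). The log2 difference was 0.97 for LMPP against CLP (SE 0.195, limma adjusted p = 0.0107) and 1.12 for LMPP against GMP (SE 0.195, limma adjusted p = 0.00142). For CLP against GMP it was 0.15, with a 95% interval of -0.27 to 0.58 (limma adjusted p = 0.606). Within batch 2 LMPP exceeded CLP by 1.31 (limma adjusted p = 0.0279); within batch 1 the difference was 0.63 (limma adjusted p = 0.0815). Without the haemoglobin-rich pair it was 0.85 (limma adjusted p = 0.0535).

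Foxo1 (chromosome 3, 52268336 to 52353221, plus strand), the member of the family needed for Il7r and Rag gene expression in early B cells, was highest in CLP, but its CLP libraries differed 31-fold among themselves. Those of batch 2 stood at 68.32 and 79.48 TPM, and those of batch 1 at 19.13 and 2.56 TPM. LMPP stood at 6.37 and 6.10 TPM in batch 2 and 3.48 and 3.92 TPM in batch 1, and GMP at 2.00 and 2.06 TPM and at 2.03 and 1.10 TPM. CLP batch 1 replicate 2 lay below all 4 LMPP libraries, while every CLP library lay above every GMP library. Foxo1 averaged 4.97 ± 1.48 in LMPP, 42.4 ± 37.3 in CLP and 1.8 ± 0.466 TPM in GMP (SD, n = 4 each). The log2 difference for CLP against GMP was 3.19 (SE 0.6, limma adjusted p = 0.00251); within batch 2 this was 4.62 (limma adjusted p = 0.000392) and within batch 1 1.75 (limma adjusted p = 0.0972).

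For LMPP against CLP, the log2 difference of Foxo1 was -2.11 (SE 0.6, limma adjusted p = 0.0453). It was -3.37 within batch 2 (limma adjusted p = 0.0031) and -0.85 within batch 1 (limma adjusted p = 0.434), and -0.76 without both CLP libraries of batch 2 (limma adjusted p = 0.437). The call was lost when any 1 of 11 libraries was left out, with limma adjusted p between 0.0507 and 0.114, and was kept without CLP batch 1 replicate 2, where the difference was -2.92 (limma adjusted p = 0.000314). For LMPP against GMP the log2 difference of Foxo1 was 1.08, with a 95% interval of -0.23 to 2.38 (limma adjusted p = 0.198), although the libraries did not overlap. With any 1 library left out it was 0.87 to 1.38, with limma adjusted p of 0.0162 (without CLP batch 1 replicate 2, the 1 fit of 12 that made the call) to 0.376; within batch 2 it was 1.26 (limma adjusted p = 0.033) and within batch 1 0.9 (limma adjusted p = 0.341). The main fit takes 1 estimate of spread per gene over all 12 libraries, CLP included. With only LMPP and GMP in the fit, the difference was 1.08 (limma adjusted p = 0.00213). Of 27 alternative settings, 3 made the call.

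B lineage transcripts moved with Foxo1 across the CLP libraries. CLP batch 2 replicate 2, replicate 1, CLP batch 1 replicate 1 and replicate 2 had Foxo1 at 79.48, 68.32, 19.13 and 2.56 TPM and the 9 B lineage markers at a sum of 6059, 4826, 983.3 and 91.87 TPM. The same sum was 33.94 to 119.4 TPM in LMPP and 34.1 to 44.56 TPM in GMP. Of the 9 markers, 8 were called lower in LMPP than in CLP, against 2.8% of all tested genes, and 9 higher in CLP than in GMP, against 13.9%. Without both CLP libraries of batch 2 these numbered 1 and 2, against 1.88% and 14.5% of all tested genes. Pax5, a transcription factor of B cells, and Igll1, a part of the surrogate light chain, were listed at 0 in LMPP batch 1 replicate 1, and Pax5 also in GMP batch 2 replicate 1. The part of these transcripts in the Foxo1 result was not tested.

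Foxo4 (chromosome X, 101254528 to 101260873, plus strand), the third factor of the family here, was low everywhere. It averaged 5.5 ± 1.38 in LMPP, 4.04 ± 1.3 in CLP and 3.15 ± 0.547 TPM in GMP (SD, n = 4 each). Its libraries ranged from 3.89 to 7.27 in LMPP, 2.52 to 5.31 in CLP and 2.44 to 3.58 TPM in GMP. It was called in none of the 3 comparisons; the log2 difference was 0.38 for LMPP against CLP (limma adjusted p = 0.356), 0.63 for LMPP against GMP (95% interval 0.09 to 1.18, limma adjusted p = 0.0775) and 0.25 for CLP against GMP (limma adjusted p = 0.501). LMPP and GMP libraries did not overlap. With any 1 library left out that difference was 0.49 to 0.78, with limma adjusted p of 0.0495 (without LMPP batch 2 replicate 1, the 1 fit of 12 that made the call) to 0.199. With only LMPP and GMP in the fit, it was 0.63 (limma adjusted p = 0.0355). Of 27 alternative settings, 3 made the call.

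The make-up of the FOXO transcript pool overlapped between LMPP and GMP and varied widely among the CLP libraries; no test of the shares was run. Foxo3 made up 70.5% to 78.9% of the summed TPM of Foxo1, Foxo3 and Foxo4 in LMPP and 71% to 80% in GMP. In CLP it ranged from 13% to 81.9%. Foxo1 held 8.33% to 13.4% of the sum in LMPP and 6.77% to 10.4% in GMP. Among CLP libraries Foxo1 held 79.1% and 82% in batch 2 and 43.8% and 9.14% in batch 1, so that its level was 4.69 and 6.31 times that of Foxo3 in batch 2 and 0.996 and 0.112 times in batch 1. The summed level of the 3 factors was 44.5 ± 3.04 in LMPP, 63.7 ± 33.1 in CLP and 20.2 ± 3.08 TPM in GMP (SD, n = 4 each).

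**Figure D3:**
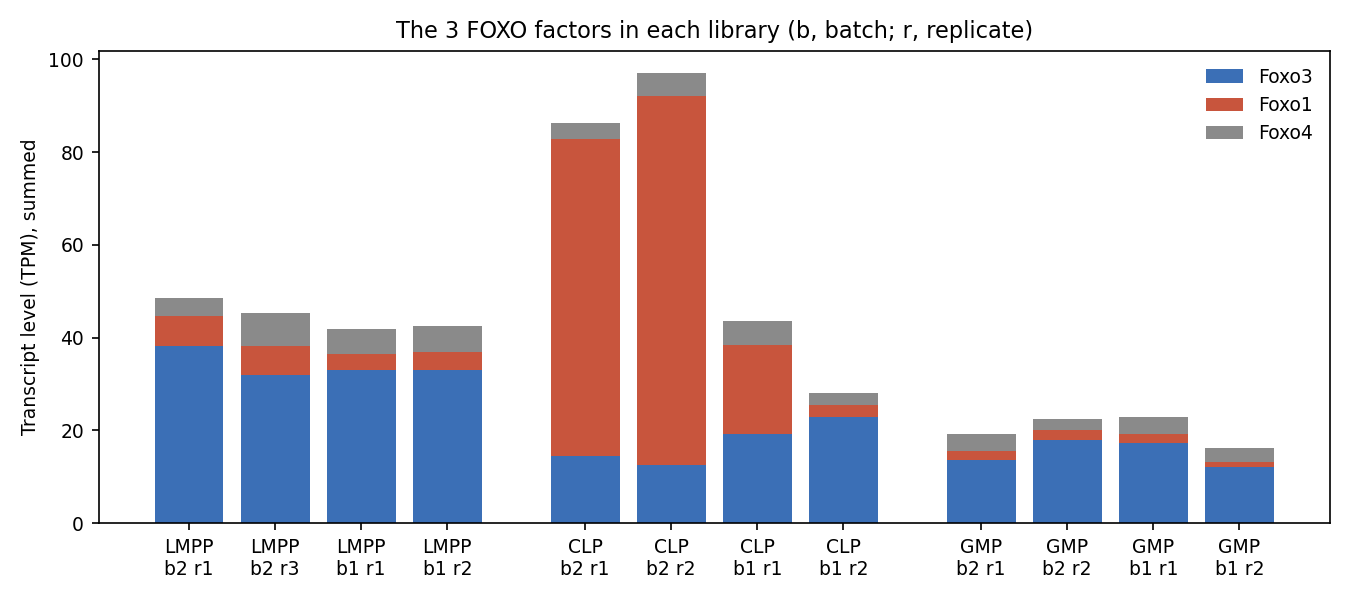
Summed TPM of Foxo1, Foxo3 and Foxo4 in each library, stacked by factor, with LMPP, CLP and GMP from left to right. Foxo3 is the largest part in all LMPP and GMP libraries and in CLP batch 1 replicate 2, Foxo1 and Foxo3 are nearly level in CLP batch 1 replicate 1, and Foxo1 holds 79.1% and 82% in the CLP libraries of batch 2.

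Txnip (chromosome 3, 96557957 to 96561883, plus strand) encodes thioredoxin-interacting protein, which binds thioredoxin and limits glucose uptake, and it was stepwise lower through all 3 types. It stood at 171.83 and 190.34 TPM in LMPP of batch 2 and 228.24 and 234.66 TPM in LMPP of batch 1. In CLP it stood at 81.12 and 64.00 TPM in batch 2 and 89.57 and 97.43 TPM in batch 1, and in GMP at 54.98 and 37.95 TPM and at 62.79 and 46.56 TPM. No 2 types overlapped. Txnip averaged 206 ± 30.2 in LMPP, 83 ± 14.3 in CLP and 50.6 ± 10.7 TPM in GMP (SD, n = 4 each), and LMPP had 2.48 times the mean TPM of CLP and 4.08 times that of GMP. The log2 difference was 1.31 for LMPP against CLP (SE 0.147, limma adjusted p = 0.000461), 2.02 for LMPP against GMP (SE 0.147, limma adjusted p = 8.4e-06) and 0.71 for CLP against GMP (SE 0.147, limma adjusted p = 0.00437). The first was 1.32 within batch 2 and 1.3 within batch 1. The third was 0.65 within batch 2 (limma adjusted p = 0.099) and 0.78 within batch 1 (limma adjusted p = 0.0119).

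The sestrins Sesn1 and Sesn3 encode stress-induced proteins that restrain mTORC1, the kinase complex that drives growth. Sesn1 (chromosome 10, 41809935 to 41908424, plus strand) was nearly constant in LMPP, at 58.06 and 56.39 TPM in batch 2 and 57.95 and 58.26 TPM in batch 1. It stood at 26.91 and 31.73 TPM in batch 2 and 41.97 and 48.99 TPM in batch 1 of CLP, and at 17.94 and 18.72 TPM in batch 2 and 13.15 and 13.53 TPM in batch 1 of GMP. The libraries of no 2 types overlapped. Sesn1 averaged 57.7 ± 0.86 in LMPP, 37.4 ± 9.96 in CLP and 15.8 ± 2.9 TPM in GMP (SD, n = 4 each). LMPP exceeded GMP by 1.82 (SE 0.192, limma adjusted p = 6.34e-05) and CLP exceeded GMP by 1.17 (SE 0.192, limma adjusted p = 0.00103) on the log2 scale. Within batch 2 the CLP and GMP difference was 0.65 (limma adjusted p = 0.0641) and within batch 1 it was 1.69 (limma adjusted p = 0.000224). LMPP against CLP gave 0.65, with a 95% interval of 0.23 to 1.07, and missed the threshold (limma adjusted p = 0.0522). It was 0.95 within batch 2 (limma adjusted p = 0.0325) and 0.35 within batch 1 (limma adjusted p = 0.163), and 0.24 without both CLP libraries of batch 2 (limma adjusted p = 0.407). With any 1 library left out it was 0.5 to 0.79, with limma adjusted p of 0.0224 (without CLP batch 1 replicate 2, the 1 fit of 12 that made the call) to 0.111.

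Sesn3 (chromosome 9, 14275067 to 14333101, plus strand) was lower in GMP than in LMPP and in CLP. It stood at 9.25 and 9.40 TPM in batch 2 and 8.16 and 9.03 TPM in batch 1 of LMPP, and at 8.23 and 11.14 TPM in batch 2 and 8.48 and 6.36 TPM in batch 1 of CLP. GMP stood at 5.16 and 2.81 TPM in batch 2 and 2.62 and 2.30 TPM in batch 1, below every library of the other types. The log2 difference was 1.28 for LMPP against GMP (SE 0.208, limma adjusted p = 0.000951) and 1.2 for CLP against GMP (SE 0.208, limma adjusted p = 0.00145); within batch 2 they were 1.09 (limma adjusted p = 0.1) and 1.13 (limma adjusted p = 0.0765). For LMPP against CLP it was 0.08, with a 95% interval of -0.37 to 0.53 (limma adjusted p = 0.836), and its sign turned under median-ratio scaling (-0.08) and quantile normalization (-0.13).

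Pik3ip1 (chromosome 11, 3330401 to 3342971, plus strand), a membrane protein that binds and restrains PI3K and so acts upstream of FOXO, was the member lowest in CLP. It stood at 25.08 and 45.34 TPM in batch 2 and 28.00 and 23.75 TPM in batch 1 of LMPP, and at 18.63 and 7.51 TPM in batch 2 and 17.22 and 12.07 TPM in batch 1 of CLP. In GMP it stood at 16.78 and 29.52 TPM in batch 2 and 16.69 and 16.92 TPM in batch 1. LMPP lay above CLP in every library, while GMP overlapped both. Pik3ip1 averaged 30.5 ± 10 in LMPP, 13.9 ± 5.08 in CLP and 20 ± 6.36 TPM in GMP (SD, n = 4 each). The log2 difference was 1.11 for LMPP against CLP (SE 0.296, limma adjusted p = 0.0357), 0.58 for LMPP against GMP (limma adjusted p = 0.159) and -0.53 for CLP against GMP (limma adjusted p = 0.219). The call was lost, with limma adjusted p of 0.0501 to 0.104, without any 1 of the 4 LMPP libraries, CLP batch 2 replicate 2, CLP batch 1 replicate 2 or GMP batch 1 replicate 2. Within batch 2 the difference was 1.43 (limma adjusted p = 0.123) and within batch 1 it was 0.8 (limma adjusted p = 0.0466).

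Ccng2 (chromosome 5, 93267257 to 93276231, plus strand) encodes cyclin G2, an atypical cyclin linked to cell cycle arrest. It stood at 17.37 and 25.76 TPM in batch 2 and 12.88 and 13.61 TPM in batch 1 of LMPP, and at 28.88 and 19.69 TPM in batch 2 and 10.85 and 9.15 TPM in batch 1 of CLP. GMP stood at 4.99 and 3.87 TPM in batch 2 and 5.07 and 5.52 TPM in batch 1, below every LMPP and CLP library, while LMPP and CLP overlapped. The means were 17.4 ± 5.91 in LMPP, 17.1 ± 9.09 in CLP and 4.86 ± 0.702 TPM in GMP (SD, n = 4 each). LMPP exceeded GMP by 1.61 (SE 0.273, limma adjusted p = 0.00124) and CLP exceeded GMP by 1.5 (SE 0.273, limma adjusted p = 0.00197) on the log2 scale. The CLP and GMP difference was 2.2 within batch 2 (limma adjusted p = 0.0086) and 0.8 within batch 1 (limma adjusted p = 0.0212), and the LMPP and GMP difference 2.04 and 1.18. For LMPP against CLP the log2 difference was 0.11, with a 95% interval of -0.49 to 0.7 (limma adjusted p = 0.838); its sign turned under median-ratio scaling (-0.06), within batch 2 (-0.17) and without LMPP batch 2 replicate 3 (-0.02) or CLP batch 1 replicate 2 (-0.06).

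Rbl2 (chromosome 8, 91070057 to 91123844, plus strand) encodes p130, the pocket protein of the DREAM complex that represses cell cycle genes in quiescent cells. It stood at 31.59 and 35.11 TPM in batch 2 and 31.96 and 23.48 TPM in batch 1 of LMPP, at 17.73 and 23.39 TPM and at 19.19 and 18.21 TPM in CLP, and at 20.66 and 23.22 TPM and at 15.18 and 16.93 TPM in GMP. Every LMPP library lay above every CLP and GMP library; the lowest LMPP library, at 23.48 TPM, was just above the highest CLP library, at 23.39 TPM. The means were 30.5 ± 4.96 in LMPP, 19.6 ± 2.58 in CLP and 19 ± 3.63 TPM in GMP (SD, n = 4 each). The log2 difference was 0.61 for LMPP against CLP (SE 0.155, limma adjusted p = 0.0306) and 0.66 for LMPP against GMP (SE 0.155, limma adjusted p = 0.00798). For CLP against GMP it was 0.05, with a 95% interval of -0.28 to 0.39 (limma adjusted p = 0.832), and its sign turned under median-ratio scaling (-0.05) and within batch 2 (-0.1). The LMPP and CLP call was lost without any 1 of LMPP batch 2 replicate 1 and replicate 3, LMPP batch 1 replicate 1, and CLP batch 2 replicate 1, with limma adjusted p of 0.0556 to 0.101. It was 0.68 within batch 2 (limma adjusted p = 0.109) and 0.53 within batch 1 (limma adjusted p = 0.111); the LMPP and GMP call was lost under median-ratio scaling (0.39, limma adjusted p = 0.0807). Aktip, a protein-coding gene that overlaps Rbl2 on the other strand, reached at most 13.05 TPM.

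Tob1 (chromosome 11, 94211454 to 94215495, plus strand) encodes an antiproliferative protein that recruits the CCR4-NOT deadenylase to messenger RNA, and its levels differed by batch in every type. It stood at 22.70 and 19.15 TPM in batch 2 and 8.88 and 7.85 TPM in batch 1 of LMPP, at 16.88 and 17.61 TPM in batch 2 and 2.55 and 3.08 TPM in batch 1 of CLP, and at 7.34 and 6.14 TPM in batch 2 and 1.67 and 2.03 TPM in batch 1 of GMP. LMPP lay above GMP in every library, while CLP overlapped both, and within each batch the order was LMPP, CLP, GMP with no overlap. LMPP exceeded GMP by 1.61 on the log2 scale (SE 0.226, limma adjusted p = 0.000386), 1.5 within batch 2 and 1.72 within batch 1. LMPP exceeded CLP by 0.78 (SE 0.226, limma adjusted p = 0.0483), which was 0.26 within batch 2 (limma adjusted p = 0.516) and 1.3 within batch 1 (limma adjusted p = 0.0184). CLP exceeded GMP by 0.83 (SE 0.226, limma adjusted p = 0.0189), which was 1.24 within batch 2 (limma adjusted p = 0.0213) and 0.42 within batch 1 (limma adjusted p = 0.236). The LMPP and CLP call was lost without any 1 of 10 libraries, every one but the CLP libraries of batch 2, with limma adjusted p of 0.0529 to 0.138. The CLP and GMP call was lost without GMP batch 2 replicate 1 (limma adjusted p = 0.0504) or GMP batch 2 replicate 2 (limma adjusted p = 0.0657).

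Differences between the batches were tested within each type, with a mean for each type and batch. Tob1 was the member called in every type. It averaged 20.9 TPM in batch 2 and 8.36 TPM in batch 1 of LMPP, 17.2 and 2.82 TPM in CLP, and 6.74 and 1.85 TPM in GMP (n = 2 each). The log2 difference of batch 2 minus batch 1 was 1.22 in LMPP (SE 0.228, limma adjusted p = 0.017), 2.26 in CLP (SE 0.228, limma adjusted p = 0.00011) and 1.44 in GMP (SE 0.228, limma adjusted p = 0.00615). The call was lost in LMPP without replicate 1 of batch 2 or either library of batch 1 (limma adjusted p 0.0667 to 0.111), and in GMP without either library of batch 2 or GMP batch 1 replicate 1 (limma adjusted p 0.0571 to 0.0738). With the batch as an additive term over all types, 1 member was called, Tob1 (1.64, limma adjusted p = 0.000115), where 24.6% of all genes were.

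In LMPP 1 of 10 members differed between the batches, where 4.61% of genes did, and in GMP 1 of 10, where 8.22% did. In CLP 4 of 10 members did, Foxo1, Ccng2 and Tob1 higher and Sesn1 lower in batch 2, where 32% of all genes differed. For Foxo1 the log2 difference in CLP was 3.14 (SE 0.61, limma adjusted p = 0.00368), with a mean in batch 2 that was 6.81 times that in batch 1; in LMPP it was 0.62 (limma adjusted p = 0.603) and in GMP 0.26 (limma adjusted p = 0.869). For Ccng2 it was 1.18 in CLP (SE 0.263, limma adjusted p = 0.00725), and for Sesn1 -0.62 (SE 0.153, limma adjusted p = 0.0121). Without CLP batch 1 replicate 2, Ccng2 was at 1.07 (limma adjusted p = 0.0568) and Sesn1 at -0.51 (limma adjusted p = 0.0977), and the members called numbered 2. The CLP libraries of batch 2 also had 24 proliferation transcripts at a sum of 5997 and 6345 TPM, against 2489 and 2041 TPM in those of batch 1, 2196 to 3136 TPM in LMPP and 2158 to 2497 TPM in GMP. What these libraries contained and the batch cannot be told apart.

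Whether a difference between types itself differed between the batches was tested as an interaction, batch 2 minus batch 1. For CLP against GMP 1 of 10 members was called, Sesn1 (-1.05, 95% interval -1.53 to -0.57, limma adjusted p = 0.0239), where 5.48% of genes were. Without CLP batch 1 replicate 2 or any 1 of the 4 GMP libraries the value stayed between -1.08 and -0.94, with limma adjusted p of 0.0847 to 0.102; without the haemoglobin-rich pair it was -0.93 (limma adjusted p = 0.016). At an unadjusted p under 0.05 it was 5 members (Foxo1, Foxo3, Sesn1, Ccng2 and Tob1), against 21.6% of genes. For LMPP against CLP limma called 0 members, against 8.58% of genes, and 3 passed at an unadjusted p under 0.05 (Foxo1, Sesn1 and Tob1), against 25.7%. For LMPP against GMP limma called 0, against 0.0157% of genes, and 1 passed unadjusted (Ccng2), against 9.81%. The interaction of Foxo1 was -2.52 for LMPP against CLP (limma adjusted p = 0.0987) and 2.88 for CLP against GMP (limma adjusted p = 0.0857).

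**Figure D4:**
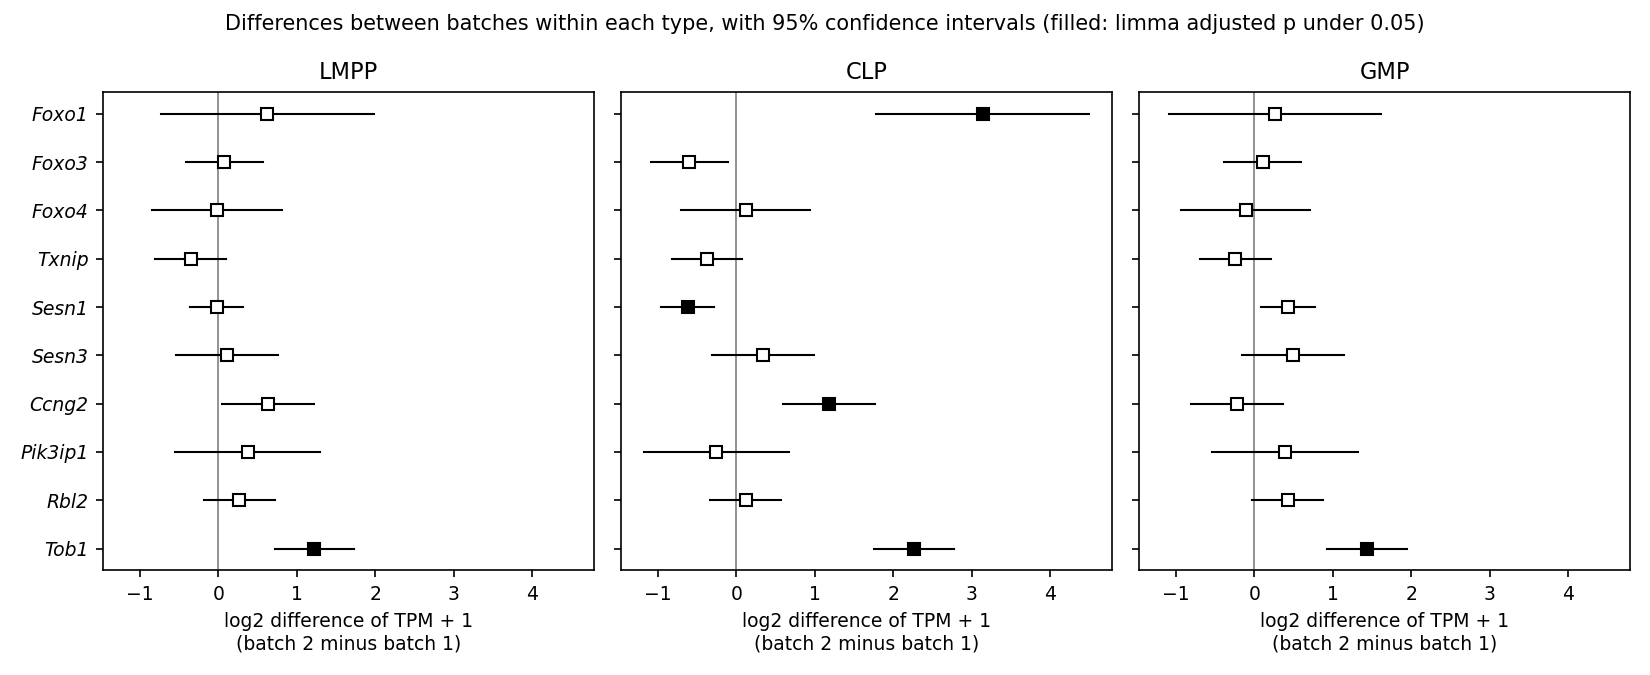
Log2 difference of batch 2 minus batch 1 for each gene within LMPP, CLP and GMP, with 95% confidence intervals and filled points for a limma adjusted p under 0.05. Tob1 is called in the 3 types (1.22, 2.26 and 1.44), and Foxo1, Ccng2 and Sesn1 in CLP (3.14, 1.18 and -0.62).

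Counts in the gene lists that follow stand beside the shares of all tested genes called higher and lower in the first type, which were 7.23% and 2.8% for LMPP against CLP, 21.3% and 7.62% for LMPP against GMP and 13.9% and 9.96% for CLP against GMP. At an unadjusted p under 0.05 the shares were 19.6% and 7.11%, 29.8% and 11.1%, and 21.3% and 15% in the same order. The counts were also taken without both CLP libraries of batch 2, a setting added for the lists after the data were seen; there 5.28% of genes were called higher and 1.88% lower in LMPP than in CLP, and 14.5% higher and 11.8% lower in CLP than in GMP.

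Upstream of FOXO, 21 genes of PI3K, AKT and mTOR signalling were all tested. In LMPP against CLP limma called 0 higher (4 at an unadjusted p under 0.05) and 2 lower: Pik3cd, a PI3K catalytic subunit of white blood cells (13.6 ± 0.814 in LMPP and 28.9 ± 6.35 TPM in CLP, log2 difference -1.02, limma adjusted p = 0.00308), and Inpp5d, the lipid phosphatase SHIP1 (-0.61, limma adjusted p = 0.0231). In LMPP against GMP 7 of 21 were called higher, where 21.3% of all genes were, and 0 lower, where 7.62% were (9 and 0 unadjusted, where 29.8% and 11.1% were). These included Rictor, a subunit of mTORC2 (12.6 ± 1.76 in LMPP and 5.24 ± 1.14 TPM in GMP, log2 difference 1.14, limma adjusted p = 0.000334). In CLP against GMP 7 were called higher and 1 lower, and 6 and 1 without both CLP libraries of batch 2. Inpp5d (1.26, limma adjusted p = 0.000104) was higher, and Pik3cb (-1.6, limma adjusted p = 0.0339) was lower, at -0.97 without those libraries (limma adjusted p = 0.0314). Sgk1, a kinase that phosphorylates FOXO proteins, was called higher (1.86, limma adjusted p = 0.0348), but stood at 14.72 and 34.25 TPM in CLP of batch 2 and at 5.02 and 1.59 TPM in CLP of batch 1, against 0.76 to 2.32 TPM in GMP. Without the CLP libraries of batch 2 its difference was 0.61 (limma adjusted p = 0.406), and the difference of Inpp5d between LMPP and CLP was -0.43 (limma adjusted p = 0.127). The list holds activators of AKT beside phosphatases that oppose them, so its counts give no direction of signalling. Its median log2 difference was -0.03, 0.49 and 0.48 in the 3 comparisons, beside 0.17, 0.24 and 0.09 over all genes.

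Of 25 other genes known as FOXO targets, 24 were tested, with Bbc3 below the filter. In LMPP against CLP 3 were called higher and 2 lower. Gabarapl1, an autophagy protein, averaged 72.3 ± 10 in LMPP and 29.7 ± 10.8 TPM in CLP (log2 difference 1.34, limma adjusted p = 0.0141), with Klf6 (1.09, limma adjusted p = 0.0181) and Bnip3 (0.8, limma adjusted p = 0.0277) also higher. Cdkn1a, the cyclin-dependent kinase inhibitor p21, went the other way, with 36.1 ± 21 in LMPP and 123 ± 40.3 TPM in CLP (-1.85, limma adjusted p = 0.000833), as did Tcf7, a T lineage factor (-1.8, limma adjusted p = 0.048), which was at -0.53 without both CLP libraries of batch 2 (limma adjusted p = 0.379). In LMPP against GMP 10 of 24 were called higher, where 21.3% of all genes were, and 2 lower, where 7.62% were. Trp53inp1, a stress protein of autophagy and cell death, averaged 13.5 ± 4.08 in LMPP and 1.34 ± 0.486 TPM in GMP (2.6, limma adjusted p = 3.23e-05), and Klf6 (1.56) and the chemokine receptor Ccr7 (1.55) followed, while Gadd45b (-1.39) and Cited2 (-0.91) were lower. In CLP against GMP 8 were called higher, led by Trp53inp1 (3.1, limma adjusted p = 6.82e-06), Cdkn1a (2.89, limma adjusted p = 7.16e-06) and Ccr7 (2.75, limma adjusted p = 0.000485), and 4 lower (Gadd45b, Cited2, Bnip3 and Sod2); without both CLP libraries of batch 2 these numbered 5 and 4 of 23 tested. The median log2 difference of this list was 0.32, 0.64 and 0.57 in the 3 comparisons.

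Of 12 partners of Rbl2 in the DREAM complex and the pocket protein family, limma called 0 higher in LMPP than in CLP (also 0 at an unadjusted p under 0.05) and 1 lower, Tfdp1, the partner of E2F factors (-0.45, limma adjusted p = 0.0367), which was at -0.38 without both CLP libraries of batch 2 (limma adjusted p = 0.122). In LMPP against GMP 2 were higher, Tfdp2 (1.16, limma adjusted p = 0.000793) and E2f5 (0.86, limma adjusted p = 0.0392), and Tfdp1 was lower (-0.62, limma adjusted p = 0.00286). In CLP against GMP 5 were higher (Tfdp2, Rb1, Rbbp4, Lin9 and Rbl1) and 0 lower (8 and 0 unadjusted, where 21.3% and 15% of all genes were). Without both CLP libraries of batch 2, 1 was called higher, Tfdp2 (0.74, limma adjusted p = 0.0382). Rb1, the retinoblastoma gene, stood at 51.87 and 56.02 TPM in CLP of batch 2 and at 13.34 and 11.85 TPM in CLP of batch 1, against 10.79 to 22.34 TPM in GMP. Lin9, a core subunit of DREAM, stood at 21.03 and 19.79 TPM in CLP of batch 2 and at 11.09 and 7.23 TPM in CLP of batch 1, against 6.07 to 10.73 TPM in GMP. These are the CLP libraries with the highest sums of B lineage and proliferation transcripts, whose part in these differences was not tested. Rbl1, which encodes the pocket protein p107, averaged 33.4 ± 6.05 in LMPP, 38.2 ± 16.4 in CLP and 24.8 ± 7.07 TPM in GMP; unlike Rbl2, it was called in CLP against GMP (0.54, limma adjusted p = 0.0303, and 0.26 without both CLP libraries of batch 2, limma adjusted p = 0.283) and not in LMPP against GMP (0.44, limma adjusted p = 0.0617). The difference between these paralogues was not tested.

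Of 4 relatives of Tob1, Btg1 and Btg2 were called higher in LMPP than in GMP and in CLP than in GMP, and limma called 0 of 4 between LMPP and CLP, also at an unadjusted p under 0.05. Btg2 averaged 26.2 ± 21.1 in LMPP, 14.4 ± 7.39 in CLP and 4.27 ± 1.39 TPM in GMP (log2 difference 2.07 for LMPP against GMP, limma adjusted p = 0.00117, and 1.44 for CLP against GMP, limma adjusted p = 0.0101). Without both CLP libraries of batch 2, limma called 0 of the 4 in CLP against GMP, with Btg2 at 1.3 (limma adjusted p = 0.066). Tob2 averaged 17.7 ± 2.89 in LMPP, 13.8 ± 1.84 in CLP and 16 ± 2.52 TPM in GMP and was called in no comparison. Of 8 other paralogues and partners of the members, 7 were tested, and Foxo6 was listed at 0 in all 12 libraries. Arrdc3, an arrestin of the same family as Txnip, averaged 13.3 ± 2.15 in LMPP, 7.93 ± 1.2 in CLP and 4.14 ± 0.898 TPM in GMP, and was called in LMPP against CLP (0.67, limma adjusted p = 0.0447, and 0.57 without both CLP libraries of batch 2, limma adjusted p = 0.17), LMPP against GMP (1.48, limma adjusted p = 0.000218) and CLP against GMP (0.8, limma adjusted p = 0.00935). Its relative Arrdc4 was lower in CLP than in GMP (-1.15, limma adjusted p = 0.0369), and Mlxip, a partner in glucose-responsive transcription, was higher (0.55, limma adjusted p = 0.0479). The other 4 tested genes were called in no comparison.

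Of 24 proliferation genes, limma called 2 lower in LMPP than in CLP (Ccne1, -1.29, and Ccne2, -1.28) and 0 higher; at an unadjusted p under 0.05 it was 8 lower, where 7.11% of all genes were, and 0 higher, where 19.6% were. Without both CLP libraries of batch 2, 1 was called lower, Ccne2 (-1.09, limma adjusted p = 0.0316). In LMPP against GMP 1 was higher (Cenpf, 1.61) and 2 were lower (Mcm5, -0.65, and Mcm2, -0.53). In CLP against GMP 8 were called higher, led by Cenpf (2), Mki67 (1.37) and Kif11 (1.35), and 0 lower (13 and 0 unadjusted, where 21.3% and 15% of all genes were). Without both CLP libraries of batch 2, 1 was called higher, Ccne2 (0.78, limma adjusted p = 0.0488), and the median log2 difference of the list was 0.06. Mki67, the gene of the proliferation antigen Ki-67, stood at 632.94 and 717.82 TPM in CLP of batch 2 and at 140.95 and 137.19 TPM in CLP of batch 1, against 108.23 to 121.45 TPM in GMP. The median log2 difference of the list was -0.51, 0.07 and 0.75 in the 3 comparisons.

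**Figure D5:**
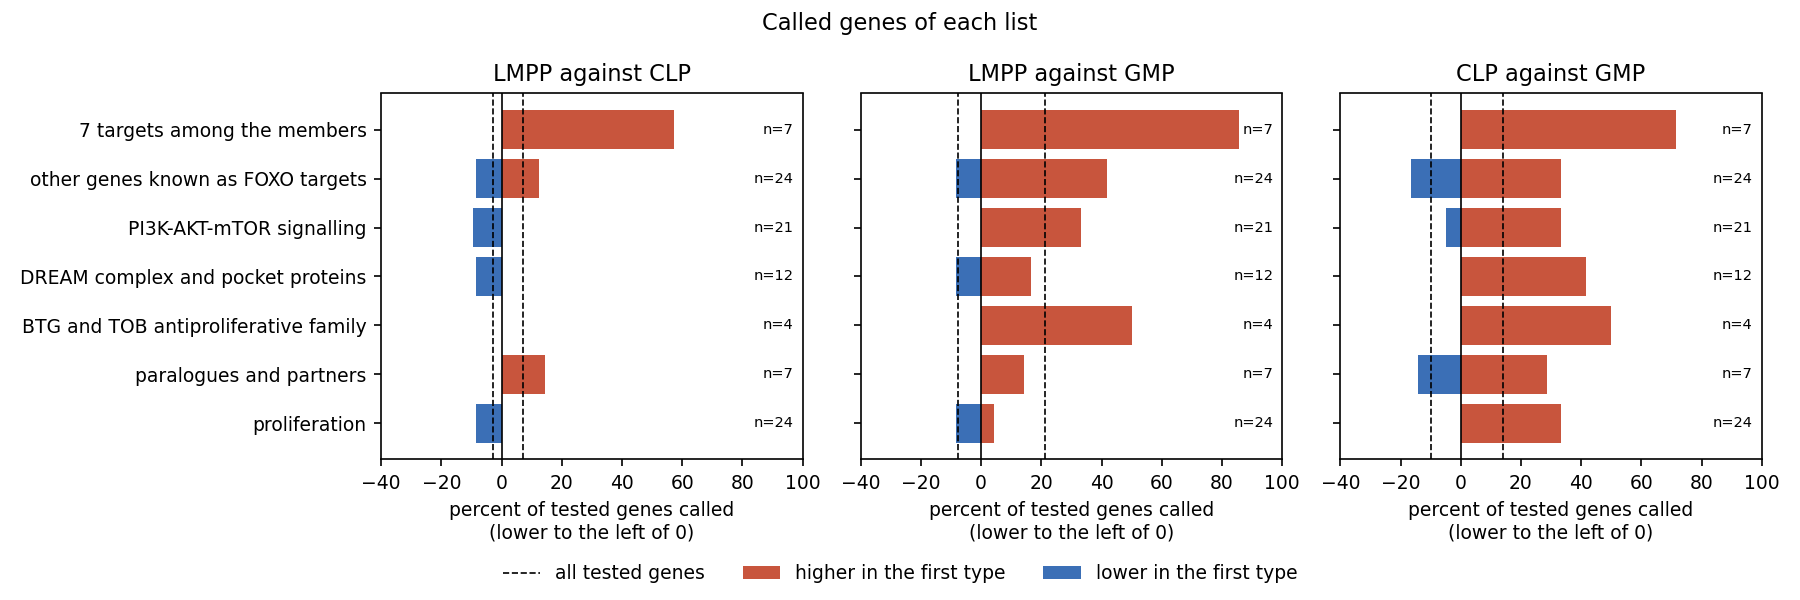
Percent of the tested genes of each list that were called higher (right of 0) or lower (left of 0) in the first type, for LMPP against CLP, LMPP against GMP and CLP against GMP; dashed lines are the percent over all tested genes, and n is the number tested. The 7 targets have 4, 6 and 5 members higher in the first type and 0 lower; the proliferation list has 0, 1 and 8 higher.

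For each FOXO factor, the 3 genes whose log2 profile over the 12 libraries was closest to its own were found by the root mean square (RMS) difference of mean-centred values, among 8790 or 8791 genes averaging at least 5 TPM. For Foxo1, whose own RMS around its mean was 1.7, these were Id3, an inhibitor of E proteins (RMS difference 0.346; means of 0.695, 16.1 and 0.122 TPM in LMPP, CLP and GMP), Rras2 (0.439) and Chst3 (0.462). Id3 stood at 28.67 and 31.13 TPM in CLP of batch 2 and at 4.4 and 0.12 TPM in CLP of batch 1. For Foxo3, with an own RMS of 0.547, they were Laptm4a, a lysosomal membrane protein (0.193; means of 55.5, 31.5 and 28.9 TPM in LMPP, CLP and GMP), Rnf213 (0.201) and Smad1 (0.21). For Foxo4, with an own RMS of 0.373, they were Riox2 (0.167), Cdan1 (0.219) and H2-K1 (0.219). The profiles share the libraries and the batch difference of the CLP samples. None of the targets was among these genes, but with only 3 kept per factor this cannot show whether targets follow a factor.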

How the data were processed

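RNA-seq of 12 bulk libraries (4 LMPP, 4 CLP and 4 GMP) was analysed from the deposited table of TPM, a relative transcript abundance corrected for length, which the authors made; Bowtie2 2.2.0, RSEM 1.2.12, edgeR 3.10.0 and the mm10 build are named per the submitters' processing notes, with order, settings and use of strand not given in the sources used here. RSEM shares reads among transcripts by estimation. TPM keeps no read totals, so depth is unknown and no counting interval or floor is given. Groups and batches came from the sample titles; 17 columns not matched to these samples by name were not used.

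Symbols and coordinates were taken from GENCODE M21, which named 37607 of 38924 IDs. The 12718 genes that reached 1 TPM in 4 or more libraries were transformed as log2(TPM + 1) and modelled in a single limma 3.58.1 fit (R 4.3.3) of the 12 libraries, with trended variance moderation, a type term and an additive batch term (8 residual degrees of freedom); batch differences and interactions used a mean per type and batch (6 residual degrees of freedom). All tests were two-sided, with Benjamini-Hochberg adjustment over all tested genes. The fit was tested on simulated data in which the spread of a gene was the same in every type. That test therefore does not cover a gene that varies more in 1 type, such as Foxo1 in CLP. Named genes are all members, up to 3 called genes with the largest differences in each list and comparison, all behind counts of 5 or fewer, and the nearest profiles of each FOXO factor; Rbl1, Tob2 and the genes of single libraries were added after their values were seen, and a few genes that this rule names are not reported here. The members and lists were chosen with earlier results of these data known. Alternatives covered pseudocounts, filters, scalings, batch terms and left-out libraries. No pair of libraries held identical values.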

Additional observations from a re-analysis of the deposited data

Results flagged for a closer look

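In 4 of the 30 groups of 4 libraries, a library stood far from the other 3 by Dixon's test, which chance does in about 1 group in 20. Foxo1 in GMP batch 1 replicate 2 was at 1.1 TPM, against 2 to 2.06 TPM in the other 3 GMP libraries. Foxo3 in LMPP batch 2 replicate 1, a haemoglobin-rich library, was at 38.21 TPM, against 32.02 to 33.07 TPM in the others. Sesn1 in LMPP batch 2 replicate 3 was at 56.39 TPM, against 57.95 to 58.26 TPM, a gap that is large beside the narrow spread of the group and small in size. Pik3ip1 in GMP batch 2 replicate 2 was at 29.52 TPM, against 16.69 to 16.92 TPM.

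The difference of Sesn1 between CLP and GMP itself differed between the batches, by a log2 value of -1.05 for batch 2 minus batch 1 (limma adjusted p = 0.0239). Without CLP batch 1 replicate 2 or any 1 of the 4 GMP libraries the value was -1.08 to -0.94 and missed the threshold (limma adjusted p of 0.0847 to 0.102).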

How the results depend on the processing

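Of the calls for single members, 6 held under all 27 alternatives: Txnip in LMPP against CLP and LMPP against GMP, Foxo3 and Sesn1 in LMPP against GMP, and Ccng2 in both comparisons with GMP. Members called higher in LMPP than in CLP numbered 5, and 3 with no filter, 2 with median-ratio scaling, 2 with no batch term, 3 within batch 1, 3 within batch 2, 2 without the haemoglobin-rich pair, 2 without both CLP libraries of batch 2, 2 with only these types in the fit, and 2 to 4 with 1 library left out. Those called lower numbered 1 and became 0 with a pseudocount of 0.1, no filter, no batch term, no variance trend, batch 1 alone, without the haemoglobin-rich pair, without both CLP libraries of batch 2 and with only these types, and 0 to 1 with 1 library left out. Deviations of same-numbered libraries from the mean of their type and batch had correlations of -0.106 to 0.169 over 6 pairs. The highest was that of the haemoglobin-rich pair. With 2 libraries per type and batch, these values cannot decide whether the numbers pair the samples. With a replicate block the members called for LMPP against CLP numbered 1 higher and 0 lower, and the difference of Ccng2 was -0.08. Members higher in CLP than in GMP numbered 6, and 3 within batch 2, with 5 to 6 when 1 library was left out. For LMPP against GMP, 7 to 8 members were called higher with 1 library left out. Members called between the batches numbered 1 in LMPP (2 without the haemoglobin-rich pair, 0 to 1 with 1 library left out), 4 in CLP (2 to 4) and 1 in GMP (0 to 1). The interaction of LMPP against CLP had 0 members, 1 with a pseudocount of 5, 2 without the haemoglobin-rich pair and 0 to 1 with 1 library left out; that of CLP against GMP had 1, and 2 with a pseudocount of 5, a filter of 5 TPM, median-ratio scaling or without the haemoglobin-rich pair, and 0 to 2 with 1 library left out. Signs turned for uncalled differences: for LMPP against CLP, Sesn3 (-0.08 with median-ratio scaling, -0.13 with quantile normalization, -0.04 within batch 2) and Ccng2 (-0.06 with median-ratio scaling, -0.17 within batch 2, -0.06 to 0.33 with 1 library left out). For CLP against GMP they turned for Foxo3 (-0.2 within batch 2) and Rbl2 (-0.05 with median-ratio scaling, -0.04 with quantile normalization, -0.1 within batch 2, 0 to 0.16 with 1 library left out). The batch difference of Foxo1 in GMP was 0 to 0.53 with 1 library left out, and the interaction of Tob1 for LMPP against GMP was 0.18 with a pseudocount of 5. Quantile normalization made 51.6%, 48.3% and 47.3% of all calls higher in the first type. Genes called over the whole table ranged, for higher and lower, from 155 to 1213 and 57 to 605 for LMPP against CLP (920 and 356 as reported), from 747 to 3793 and 342 to 1943 for LMPP against GMP (2707 and 969), and from 1069 to 1869 and 703 to 1757 for CLP against GMP (1773 and 1267). Fits of fewer libraries have fewer residual degrees of freedom, and so does the replicate block, which adds terms to the fit. In that block LMPP batch 2 replicate 3 has no same-numbered library of another type, so it adds nothing to the differences between types. For the other settings the cause was not tested. A left-out library leaves 1 library in its batch and type, assumed to vary like the rest. Depth is unknown, so precision rests on the spread between 4 libraries per type.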
